A study of Mus musculus with 16 samples.

Results

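The 9 genes described here encode enzymes of serine synthesis, of the exchange of serine and glycine, and of folate-bound one-carbon metabolism: Gldc, Phgdh, Psat1, Psph, Shmt1, Shmt2, Mthfd1, Mthfd2 and Aldh1l2. They were taken by gene symbol, and Gldc was chosen by its lower signal in shTR1 than in control cells. All 9 were measured, among 18193 genes with a probe set of their own, and 24 of the 45037 probe sets tested carry one of their symbols (22 carry it alone). The samples were CT26 cells, a colon carcinoma cell line of the BALB/c mouse strain, stably transfected with a short hairpin RNA vector under hygromycin selection. Of the 4 lines, shSep15 cells carried a hairpin against Sep15 (gene symbol Selenof), the 15 kDa selenoprotein of the endoplasmic reticulum. The shTR1 cells carried a hairpin against TR1 (gene symbol Txnrd1), the cytosolic thioredoxin reductase, which keeps thioredoxin in its reduced form. The shTR1/shSep15 cells carried both hairpins, and control cells carried the empty pU6-m3 vector. Each line had 4 Affymetrix mouse gene expression arrays from different mRNA samples, 16 arrays in all. The methods mention several independent cell clones, and no source says which clone or culture an array came from, so the spread between arrays of a line may be technical. Signals were processed by RMA (robust multi-array analysis) and are on a log2 scale, on which a difference of 1 is a 2-fold change.

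The hairpins were designed against these stretches of the 2 mRNAs, which define the lines compared:
Sep15 target: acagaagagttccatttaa
TR1 target: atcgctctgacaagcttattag

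Serine is made from the glycolytic intermediate 3-phosphoglycerate in a chain of reactions catalyzed by Phgdh, Psat1 and Psph. The serine hydroxymethyltransferases, Shmt1 in the cytosol and Shmt2 in mitochondria, then split serine into glycine and a one-carbon unit carried on tetrahydrofolate, and Mthfd1, Mthfd2 and Aldh1l2 oxidize or interconvert the folate-bound unit, which is used to build purines, thymidylate and methyl groups. Gldc, the glycine decarboxylase or P protein of the mitochondrial glycine cleavage system, breaks glycine down and releases a further one-carbon unit. Several of these genes are known targets of the stress-induced transcription factor Atf4, and the pathway is known for its high activity in proliferating tumor cells.

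The promoter sequences of Gldc, Psph and Mthfd2 are shown because Gldc separated the lines in the arrays and the other two carry several copies of the element searched for. They are the 250 bases before an annotated start, 5′ to 3′ on the gene's own strand (minus for all 3), from RefSeq on GRCm38.p6: chr19:30175442-30175691 for Gldc, chr5:129787254-129787503 for Psph and chr6:83317605-83317854 for Mthfd2. The Mthfd2 window lies inside the span of its gene (chr6:83305704-83326011), and the Psph window overlaps that of its gene (chr5:129765558-129787443). Capitals mark the letters CCAAT or their reverse complement ATTGG, the CCAAT box bound by the NF-Y complex.
Gldc: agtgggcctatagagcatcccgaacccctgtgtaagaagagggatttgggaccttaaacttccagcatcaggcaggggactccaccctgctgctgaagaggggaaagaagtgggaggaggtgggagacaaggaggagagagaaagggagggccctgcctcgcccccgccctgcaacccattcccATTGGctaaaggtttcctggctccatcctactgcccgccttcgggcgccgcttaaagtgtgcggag
Psph: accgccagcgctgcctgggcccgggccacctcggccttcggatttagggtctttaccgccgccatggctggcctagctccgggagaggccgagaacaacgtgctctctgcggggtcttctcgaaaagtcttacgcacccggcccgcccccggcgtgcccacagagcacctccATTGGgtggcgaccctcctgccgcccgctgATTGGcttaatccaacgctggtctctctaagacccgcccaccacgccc
Mthfd2: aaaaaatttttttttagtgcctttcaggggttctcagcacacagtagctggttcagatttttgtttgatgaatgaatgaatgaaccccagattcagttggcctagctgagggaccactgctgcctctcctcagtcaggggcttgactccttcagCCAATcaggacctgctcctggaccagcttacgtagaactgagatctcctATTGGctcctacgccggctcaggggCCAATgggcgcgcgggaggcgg

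A promoter was found in RefSeq for 8 of the 9 members, and Aldh1l2 had no entry. In this window the Gldc promoter held 1 CCAAT box, that of Psph 2 and that of Mthfd2 3. The Phgdh promoter and a Psat1 promoter, which are not shown, also held 2. The letters were present, on either strand, in the promoters of 7 members (Gldc, Mthfd1, Mthfd2, Phgdh, Psat1, Psph and Shmt1) and in 33.8% of all 32851 promoters of the same length. The GC box GGGCGG was found in 5 members (Gldc, Mthfd1, Psat1, Psph and Shmt1) and in 32.7% of all promoters. The antioxidant response element core TGACNNNGC was found in Phgdh alone among the members, and in 10.2% of all promoters. The C/EBP-ATF response element TGATGNAA was found in none of the members' windows and in 3.45% of all promoters. No match of one motif overlapped a match of another in the members. These matches describe letters and were not tested as binding sites.

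The targeted genes were read first. Selenof lay between 8.02 and 8.29 in shSep15 cells and between 7.34 and 7.86 in shTR1/shSep15 cells, against 10.78 to 11.57 in control cells. Txnrd1 measured 7.85, 10.57, 7.89 and 9.71 in the arrays labelled shTR1 and 7.18 to 7.91 in shTR1/shSep15 cells, against 9.45 to 10.39 in control cells. Replicates 2 and 4 of the arrays labelled shTR1 thus had Txnrd1 within the control range or above it. Beside the main values, those without these 2 arrays are given for Gldc, for the other members and for the genes and lists named in comparisons with shTR1 cells. Control replicate 2 also stood apart: it had the highest control signals of the stress genes Ddit3 (12.83) and Sesn2 (10.19), and 19.3% of all genes had their lowest signal of the 16 arrays there. Of the 8 epithelial markers checked for the labelled cell type, Cdh1 (2.31 to 2.80), Vil1 (2.90 to 4.45), Krt19 (4.10 to 4.58), Krt8 (4.50 to 5.13), Cdx2 (4.52 to 5.40) and Epcam (5.44 to 6.59) were low or moderate in every array. The other 2 differed between lines: Krt18 lay between 2.89 and 3.50 in shSep15 cells, 4.81 and 8.90 in shTR1 cells and 6.25 and 6.58 in shTR1/shSep15 cells, against 5.67 to 6.17 in control cells. Krt20 lay between 4.76 and 5.32 in shSep15 cells, 7.15 and 9.24 in shTR1 cells and 7.95 and 9.06 in shTR1/shSep15 cells, against 7.55 to 9.50 in control cells. The mean epithelial signal was 4.12 to 4.32 in shSep15 cells, 4.66 to 5.50 in shTR1 cells and 5.0 to 5.28 in shTR1/shSep15 cells, against 4.81 to 5.39 in control cells, so that this list, like Gldc, was lowest in shSep15 cells, and its part in the results was not tested. Of 5 leukocyte markers, Ptprc (2.42 to 3.09), Adgre1 (3.08 to 3.78) and Itgam (3.31 to 4.05) were low, Cd3e lay between 5.12 and 5.83 and Cd14 between 6.57 and 9.31. Of 3 endothelial markers, Pecam1 (2.99 to 3.48) and Cdh5 (3.87 to 4.52) were low and Kdr lay between 5.36 and 5.90. Of 4 fibroblast markers, Col1a2 was high (10.07 to 12.25), and Col1a1 (4.95 to 6.47), Pdgfra (3.98 to 6.39) and Dcn (4.58 to 8.49) were lower. The mean of these lists lay between 4.46 and 4.57 for leukocyte, 4.33 and 4.37 for endothelial and 6.68 and 7.27 for fibroblast markers in shSep15 cells. It lay between 4.50 and 4.75, 4.17 and 4.38, and 6.58 and 7.82 in shTR1 cells and between 4.80 and 5.14, 4.23 and 4.39, and 6.93 and 7.64 in shTR1/shSep15 cells, against 4.66 to 4.94, 4.28 to 4.63, and 6.49 to 7.20 in control cells.

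Gldc was the 1 member whose arrays separated all 4 lines. Its signals in replicates 1 to 4 were 4.88, 4.95, 4.77 and 4.66 in shSep15 cells, and 5.49, 5.16, 5.48 and 5.26 in shTR1 cells. In shTR1/shSep15 cells they were 5.92, 6.01, 5.99 and 5.84, against 6.90, 6.74, 6.22 and 6.28 in control cells. The arrays of no line overlapped those of another, so that the order was shSep15, shTR1, shTR1/shSep15 and control from low to high. Arrays that do not overlap were seen in 6.42% of all probe sets between shSep15 and control cells, 4.22% between shTR1 and control cells, 4.93% between shTR1/shSep15 and control cells, and 8.08% between shTR1/shSep15 and shTR1 cells. Because the fall in shTR1 cells put Gldc on the list, its values in shTR1 and control cells are a description without a test. The mean signal was 4.81 ± 0.13 in shSep15 cells, 5.35 ± 0.17 in shTR1 cells, 5.94 ± 0.08 in shTR1/shSep15 cells and 6.54 ± 0.34 in control cells (SD, n = 4 each).

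**Figure D1:**
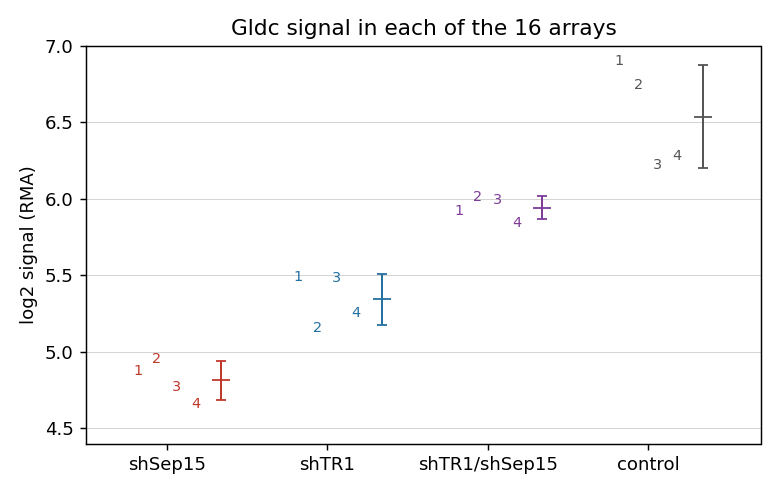
Log2 RMA signal of Gldc (vertical axis) in the 4 lines (horizontal axis). Each digit is 1 array, named by its replicate number, and the horizontal mark with its bar is the mean and SD of the 4 arrays; the shSep15 arrays lie at 4.66 to 4.95 and the control arrays at 6.22 to 6.90, with shTR1 and shTR1/shSep15 arrays between them.

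Relative to control, the mean Gldc signal was lower by 1.72 (SE 0.14) on the log2 scale in shSep15 cells, by 1.19 (SE 0.14) in shTR1 cells and by 0.59 (SE 0.14) in shTR1/shSep15 cells. These 3 differences share the control arrays. All 4 arrays labelled shTR1 lay below every control array, including the 2 arrays in which Txnrd1 was not low. Within the line, Gldc was lower in those 2 arrays (5.16 and 5.26) than in the arrays with low Txnrd1 (5.49 and 5.48). Without those 2 arrays the difference between shTR1 and control cells was -1.05 (SE 0.17) and that between shTR1/shSep15 and shTR1 cells 0.46 (SE 0.17), beside 0.60 (SE 0.14) with all arrays. The only comparison of Gldc that uses neither control nor shTR1 arrays is that of shTR1/shSep15 with shSep15 cells. There Gldc rose by 1.13 on the log2 scale (SE 0.14, a 2.18-fold difference; limma, Benjamini-Hochberg adjusted p = 0.000805). This error and p rest on the spread of all 16 arrays, and a fit on these 8 arrays alone gave SE 0.09 and an adjusted p of 0.000228. All 4 shTR1/shSep15 arrays lay above all 4 shSep15 arrays (exact two-sided permutation test, p = 0.0286, the smallest that 4 against 4 arrays allow). In this comparison 2.66% of all probe sets passed the adjusted threshold of 0.05, and 14.6% had arrays that did not overlap between the lines.

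The sum of the single-hairpin differences of Gldc went further below control than the difference measured with both hairpins, by 2.32 on the log2 scale (SE 0.20), or 2.18 (SE 0.23) without shTR1 arrays 2 and 4. By the labels, the TR1 hairpin thus went with lower Gldc in cells without the Sep15 hairpin and with higher Gldc in cells with it. This non-additivity contains the contrast that chose the gene, so for Gldc it is a description and no p-value is given. Gldc has 1 probe set, which lay at percentile 66.1 of all probe sets by mean signal, whereas the representative probe sets of the other 8 members lay between percentiles 84.8 and 98.9. The gene lies on chromosome 19 at chr19:30098441-30175441 (GRCm38.p6, minus strand).

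The 5 genes whose signals were most like those of Gldc over the 16 arrays were Gata2 (Pearson r = 0.942), Klf2 (0.918), Pole4 (0.916), Phrf1 (0.904) and Ankrd13a (0.902). These correlations are a description over 16 arrays that share 4 lines. Gata2, a zinc-finger transcription factor, lay between 5.70 and 6.04 in shSep15 cells, 5.75 and 7.10 in shTR1 cells and 6.98 and 7.21 in shTR1/shSep15 cells, against 7.31 to 7.98 in control cells. Klf2, a Krüppel-like transcription factor, lay between 4.41 and 4.62 in shSep15 cells, 5.79 and 7.74 in shTR1 cells and 7.02 and 7.37 in shTR1/shSep15 cells, against 8.37 to 10.97 in control cells. Both had their lowest signals in shSep15 cells and their highest in control cells, as Gldc did. No other member had a high correlation with Gldc. The closest was Shmt1 (r = 0.457), and Phgdh was lowest (r = -0.68).

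Phgdh, the phosphoglycerate dehydrogenase that commits 3-phosphoglycerate to serine synthesis, had its highest signals in shSep15 cells. It measured 11.72, 11.53, 11.83 and 11.82 in shSep15 cells, against 11.04, 10.70, 11.59 and 10.84 in control cells. Only control replicate 3 reached into the shSep15 range. The difference was 0.69 (SE 0.17; 1.61-fold, 95% confidence interval 0.32 to 1.06 on the log2 scale) and missed the threshold (limma, adjusted p = 0.0605), in a comparison in which 1.97% of all probe sets passed. Without control replicate 3 it was 0.87 (adjusted p = 0.00812), and leaving out each array in turn gave 0.57 to 0.87. A limma fit on the shSep15 and control arrays alone gave SE 0.19 and an adjusted p of 0.2. The other Phgdh probe sets were also higher, by 0.41 to 0.90, and none of them passed (limma, adjusted p from 0.075 to 0.62). In shTR1/shSep15 cells Phgdh measured 11.11, 11.27, 11.14 and 11.63, which was 0.44 below shSep15 cells (SE 0.17, adjusted p = 0.254). The shTR1 signals of 11.10, 11.39, 11.03 and 11.03 lay 0.09 above the control mean (SE 0.17, adjusted p = 0.834). All 6 Phgdh probe sets are of a type that can cross-hybridize with related transcripts, and 2 of them are also annotated to Phgdh pseudogenes.

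Phgdh lies at chr3:98313171-98339969 (GRCm38.p6). Of its 10 nearest measured genes, 5 on either side, 4 rose in shSep15 cells against control cells: Pde4dip by 1.68 (SE 0.35, adjusted p = 0.0213), Sec22b by 1.31 (SE 0.11, adjusted p = 3.47e-05), Notch2 by 1.30 (SE 0.19, adjusted p = 0.0026) and Zfp697 by 1.72 (SE 0.29, adjusted p = 0.00666). Sec22b encodes a SNARE protein of vesicle transport and Notch2 a receptor of the Notch pathway. The other 6 neighbors had mean signals from 2.73 to 5.22 and differences from -0.12 to 0.04. Within 10 Mb of Phgdh, 45 of 334 other measured genes rose, with a median difference of 0.14. Of the 223 of these whose mean signal exceeded the median of all probe sets, 166 were higher in shSep15 cells, 45 passed the test upward and 0 downward, and the median difference was 0.46. A difference above that of Phgdh was seen in 74 of the 223. Over the whole chromosome 113 of 913 genes rose, with a median of 0.09, against 338 of 18193 genes (1.86%) and a median of -0.02 over all chromosomes. These wider values cover genes of every signal level, so they compare with the 334 genes and not with the 223. The part of this neighborhood in the Phgdh signal was not tested.

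**Figure D2:**
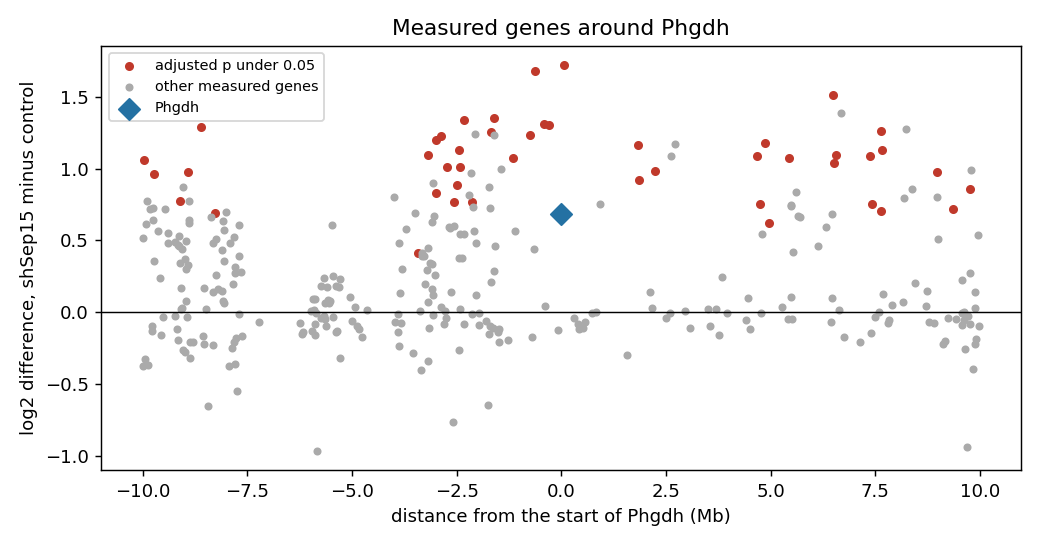
Log2 difference between shSep15 and control cells (vertical axis) of the measured genes within 10 Mb of Phgdh, by distance from the start of Phgdh in Mb (horizontal axis). Red points passed an adjusted p of 0.05, gray points did not, and the diamond is Phgdh; all 45 red points lie above 0.

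Psat1, the phosphoserine aminotransferase, varied widely between arrays of control (SD 0.89) and shTR1 cells (SD 0.79). The spread was smaller in shSep15 (SD 0.21) and shTR1/shSep15 cells (SD 0.25). Psat1 measured 10.89, 10.58, 10.73 and 11.06 in shSep15 cells and 9.72, 11.59, 10.97 and 10.44 in shTR1 cells. The shTR1/shSep15 arrays lay higher and closer together, at 11.17, 11.18, 11.33 and 11.70, against 11.56, 9.45, 10.77 and 10.98 in control cells. All 4 shTR1/shSep15 arrays were above all 4 shSep15 arrays, with a difference of 0.53 (SE 0.40, adjusted p = 0.697). By the other Psat1 probe set this difference was 0.30 and the arrays overlapped. In that comparison 7.11% of all probe sets had every shTR1/shSep15 array above every shSep15 array.

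Psph, the phosphatase that releases serine in the last step, measured 9.25, 9.74, 9.84 and 9.85 in shSep15 cells. It measured 9.49, 10.01, 8.97 and 9.48 in shTR1 cells and 9.19, 9.20, 9.23 and 9.89 in shTR1/shSep15 cells, against 9.51, 8.58, 10.03 and 9.11 in control cells. The lines overlapped throughout, and the differences from control cells were 0.36 (SE 0.28) in shSep15 cells, 0.18 (SE 0.28) in shTR1 cells and 0.07 (SE 0.28) in shTR1/shSep15 cells. The 95% confidence interval of the shSep15 difference ran from -0.25 to 0.97. Of the 3 genes of serine synthesis, 0 passed the adjusted threshold in shSep15 against control cells. There Psat1 differed by 0.12 (SE 0.40), or by -0.29 without control replicate 2.

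**Figure D3:**
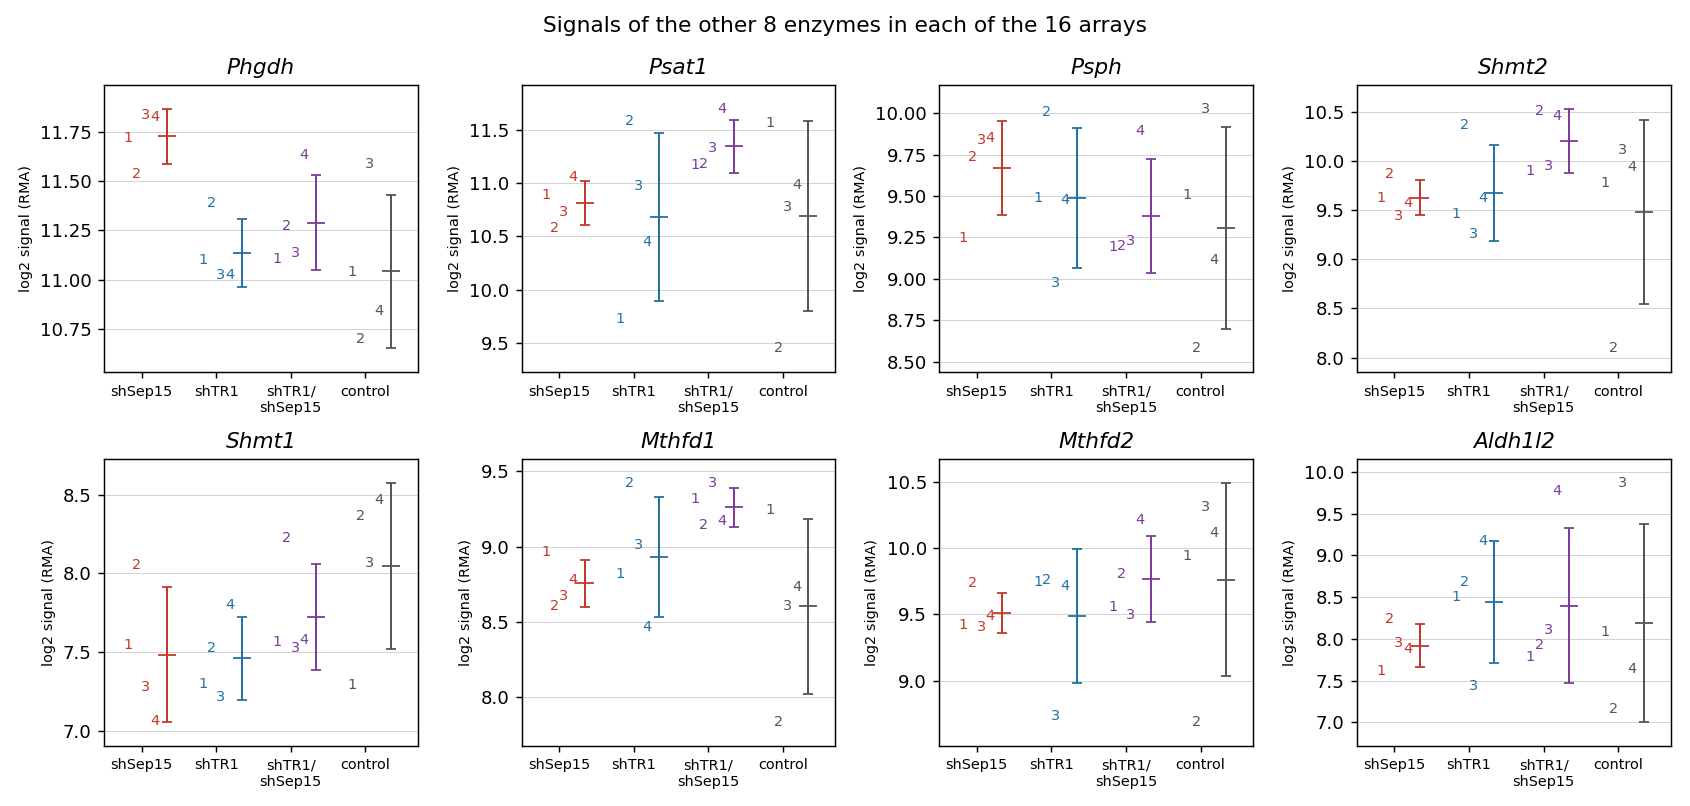
Log2 RMA signal (vertical axes, each with its own range) of the 8 members other than Gldc in the 4 lines (horizontal axes). Each digit is 1 array, named by its replicate number, and the mark with its bar is the mean and SD of the 4 arrays; control replicate 2 is the lowest of all arrays in 7 panels, those of all members shown except Shmt1.

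Shmt2, the mitochondrial serine hydroxymethyltransferase, had its highest signals in shTR1/shSep15 cells. These measured 9.91, 10.52, 9.96 and 10.47, against 9.78, 8.10, 10.12 and 9.95 in control cells. The difference was 0.73 (SE 0.36, adjusted p = 0.648), and leaving out each array in turn gave 0.26 to 0.94, the lowest without control replicate 2. The shSep15 signals were 9.63, 9.88, 9.44 and 9.57, and all lay below those of shTR1/shSep15 cells, which were higher by 0.58 (SE 0.36, adjusted p = 0.589). A limma fit on these 8 arrays alone gave SE 0.17 and an adjusted p of 0.0649, which also missed the threshold. By the other Shmt2 probe sets this difference was 0.74 and 0.50 with overlapping arrays, and 0.70 with all shTR1/shSep15 arrays above. In shTR1 cells Shmt2 measured 9.46, 10.37, 9.26 and 9.62, overlapping every other line.

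Shmt1, the cytosolic form, has 4 probe sets. The brightest measured 7.54, 8.05, 7.28 and 7.06 in shSep15 cells and 7.30, 7.53, 7.22 and 7.80 in shTR1 cells. It measured 7.57, 8.22, 7.53 and 7.58 in shTR1/shSep15 cells, against 7.30, 8.36, 8.07 and 8.46 in control cells. Control replicate 1 lay among the knockdown arrays and the other 3 control arrays above most of them. The differences from control cells were -0.56 (SE 0.26, adjusted p = 0.397) in shSep15 cells and -0.59 (SE 0.26, adjusted p = 0.408) in shTR1 cells. Against control cells the 4 probe sets differed in direction in shTR1 cells (-0.59, 0.29, -0.06 and 0.21) and in shTR1/shSep15 cells (-0.32, 0.63, -0.05 and 0.44). All 4 were higher in shTR1/shSep15 than in shSep15 cells, and 1 passed there. That one, with signals from 6.29 to 7.63, was higher by 0.86 (SE 0.22, adjusted p = 0.0473), and the brightest by 0.24 (SE 0.26, adjusted p = 0.831). The one that passed measured 7.33, 7.41, 7.24 and 7.33 in shTR1/shSep15 cells, against 6.80, 6.44, 6.33 and 6.29 in shSep15 cells.

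Mthfd1, the cytosolic trifunctional enzyme that interconverts one-carbon tetrahydrofolates, was also highest in shTR1/shSep15 cells. It measured 9.32, 9.14, 9.42 and 9.17 there, against 9.24, 7.84, 8.61 and 8.73 in control cells. The difference of 0.66 (SE 0.24; 1.58-fold) had an unadjusted p of 0.0163 in limma and an adjusted p of 0.504, in a comparison in which 8.14% of all probe sets had an unadjusted p under 0.05 and 0.0244% passed after adjustment. In shSep15 cells Mthfd1 measured 8.97, 8.61, 8.67 and 8.78. All 4 shTR1/shSep15 arrays lay above these, by 0.51 on average (SE 0.24, adjusted p = 0.392). When the spread was estimated from those 8 arrays alone the same difference passed (SE 0.11, adjusted p = 0.0218). In the fit on all arrays the other Mthfd1 probe sets were higher by 0.62 (limma, adjusted p = 0.336) and by 0.11 (adjusted p = 0.939). The arrays of the last one overlapped between these lines. The shTR1 arrays, at 8.82, 9.43, 9.01 and 8.47, overlapped every line.

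Mthfd2, the mitochondrial methylenetetrahydrofolate dehydrogenase and cyclohydrolase, measured 9.42, 9.73, 9.40 and 9.49 in shSep15 cells and 9.74, 9.76, 8.73 and 9.71 in shTR1 cells. It measured 9.56, 9.80, 9.49 and 10.22 in shTR1/shSep15 cells, against 9.94, 8.69, 10.31 and 10.11 in control cells. Of the control arrays, 3 were above all 8 single-knockdown arrays and control replicate 2 was below them all. The differences from control cells were -0.25 (SE 0.31) in shSep15 cells, -0.28 (SE 0.31) in shTR1 cells and 0.00 (SE 0.31) in shTR1/shSep15 cells.

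Aldh1l2, the mitochondrial formyltetrahydrofolate dehydrogenase, had the widest range of the members, 2.71 on the log2 scale over the 16 arrays. It measured 7.61, 8.24, 7.95 and 7.88 in shSep15 cells and 8.50, 8.68, 7.43 and 9.17 in shTR1 cells. It measured 7.78, 7.93, 8.10 and 9.78 in shTR1/shSep15 cells, against 8.08, 7.16, 9.87 and 7.64 in control cells. Single arrays set the means of 2 lines, shTR1/shSep15 replicate 4 and control replicate 3. The 95% confidence interval of the difference between shTR1/shSep15 and control cells ran from -0.96 to 1.38.

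**Figure D4:**
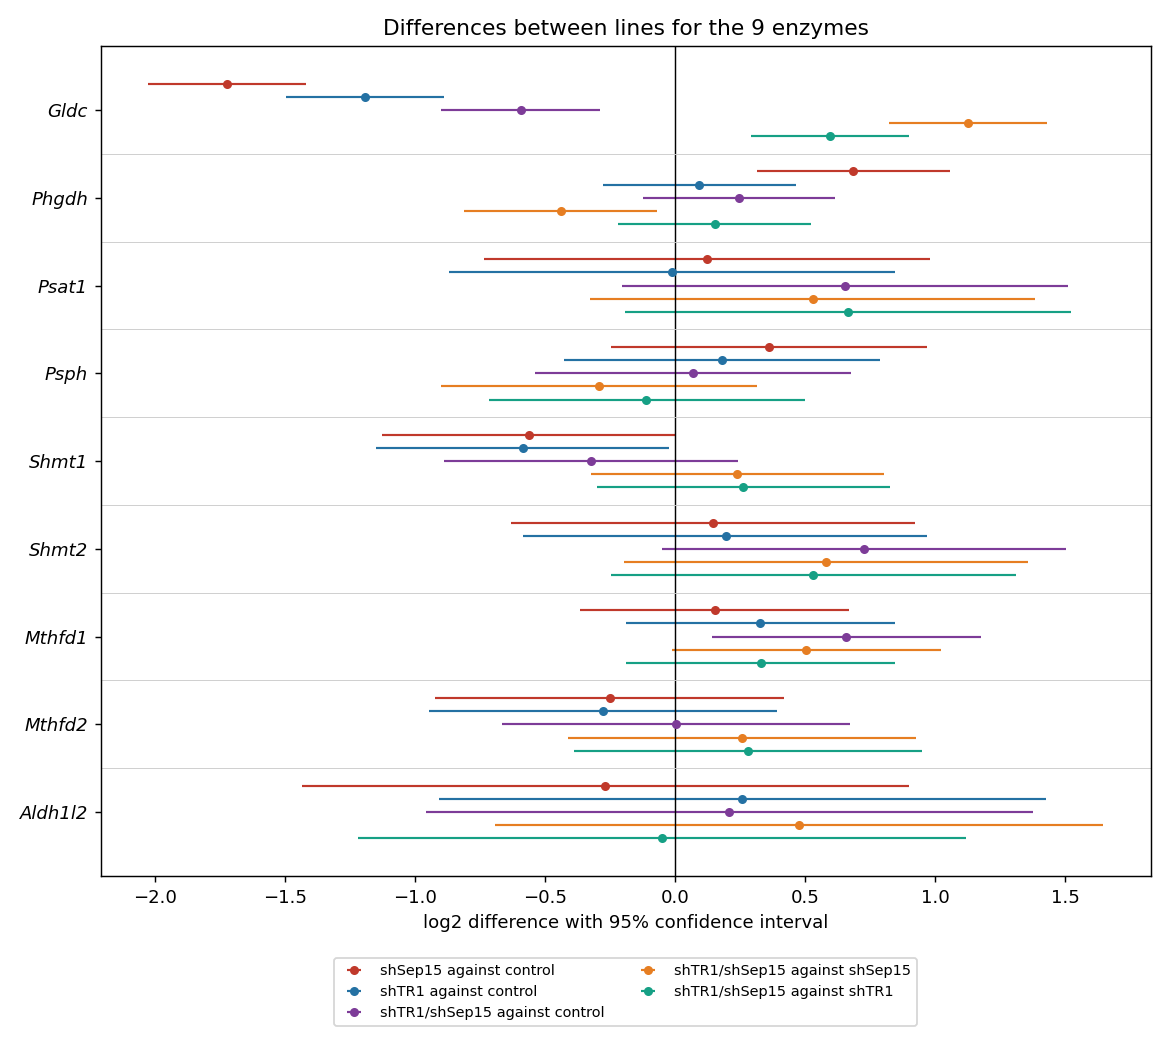
Log2 difference (horizontal axis) of the 9 members (rows) in 5 comparisons of lines, the first-named line minus the second. Points are limma estimates and bars 95% confidence intervals; the points of Gldc, chosen by its shTR1 difference, run from -1.72 to 1.13, and most intervals of the other 8 members include 0.

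Of the 8 members other than Gldc, 0 passed an adjusted p of 0.05 by their representative probe set in any of the 6 comparisons (limma). The threshold was passed by 1.97% of all probe sets in shSep15 against control cells, 0.18% in shTR1 against control cells, 0.0244% in shTR1/shSep15 against control cells, 2.66% in shTR1/shSep15 against shSep15 cells, 0.0733% in shTR1/shSep15 against shTR1 cells and 2.85% for non-additivity. An unadjusted p under 0.05 was seen for 12.7%, 11.8%, 8.14%, 13.3%, 10.4% and 16% of all probe sets in the same order of comparisons. The members past it were Phgdh in shSep15 cells, Shmt1 in shTR1 cells and Mthfd1 in shTR1/shSep15 cells, each against control, Phgdh in shTR1/shSep15 against shSep15 cells, and Phgdh and Shmt1 for non-additivity. Between shTR1/shSep15 and shSep15 cells 6 of the 8 were higher and 2 lower, with a median difference of 0.37, beside 0.03 over all 18193 genes. By representative probe set, 3 of the 8 (Psat1, Shmt2 and Mthfd1) had all arrays above, beside 1728 of all 18193 genes (7.11% of all probe sets). Each of these 3 genes also had a probe set whose arrays overlapped. Against control cells the median of the 8 was 0.13 in shSep15 cells, 0.14 in shTR1 cells and 0.23 in shTR1/shSep15 cells, beside medians of -0.02, -0.03 and 0.01 over all genes. These comparisons share the control arrays.

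Without shTR1 arrays 2 and 4, 0 of the 8 passed in a comparison with shTR1 cells or for non-additivity. The differences of shTR1 from control cells were then 0.02 for Phgdh, -0.35 for Psat1, -0.08 for Psph, -0.79 for Shmt1, -0.13 for Shmt2, 0.31 for Mthfd1, -0.53 for Mthfd2 and -0.22 for Aldh1l2. Their median was -0.17 in place of 0.14, so that the direction of the group turned. Of the 8, Psph, Shmt2 and Aldh1l2 changed sign, and Shmt1 kept its lower mean (SE 0.33, adjusted p = 0.676). The differences of shTR1/shSep15 from shTR1 cells were 0.23 for Phgdh, 1.00 for Psat1, 0.15 for Psph, 0.47 for Shmt1, 0.85 for Shmt2, 0.34 for Mthfd1, 0.53 for Mthfd2 and 0.43 for Aldh1l2. Their median was 0.45, against 0.27 with all arrays.

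Much of the variation of these enzymes lay between arrays of the same line. Control replicate 2 had the lowest of all 16 signals for 7 of the 9 members (Phgdh, Psat1, Psph, Shmt2, Mthfd1, Mthfd2 and Aldh1l2), beside 19.3% of all genes. In that array Psat1 was 9.45 and Shmt2 8.10, and the mean signal of the listed S phase genes was 8.37, against 8.48 to 9.85 in the other control arrays. Leaving it out turned the shSep15 difference of Psat1 to -0.29, of Shmt2 to -0.32 and of Mthfd1 to -0.10. Each signal was then set against the mean of its own line. For those 7 members the deviations of all 21 pairs correlated above 0, the lowest being Mthfd1 and Aldh1l2 (r = 0.019). The pairs with the highest values were Shmt2 and Mthfd2 (r = 0.878), Psph and Aldh1l2 (0.857), Phgdh and Psph (0.855) and Psat1 and Mthfd1 (0.836). The deviations of Gldc correlated below 0 with those of all 8 other members, from -0.546 with Phgdh to -0.015 with Mthfd1. These 7 members were grouped after their values were seen, and the correlations describe 16 arrays. The grouping rests on their shared low signal in control replicate 2. All 7 lay below their line mean in that array. Its share in the correlations was not tested, and neither was a link between these members.

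**Figure D5:**
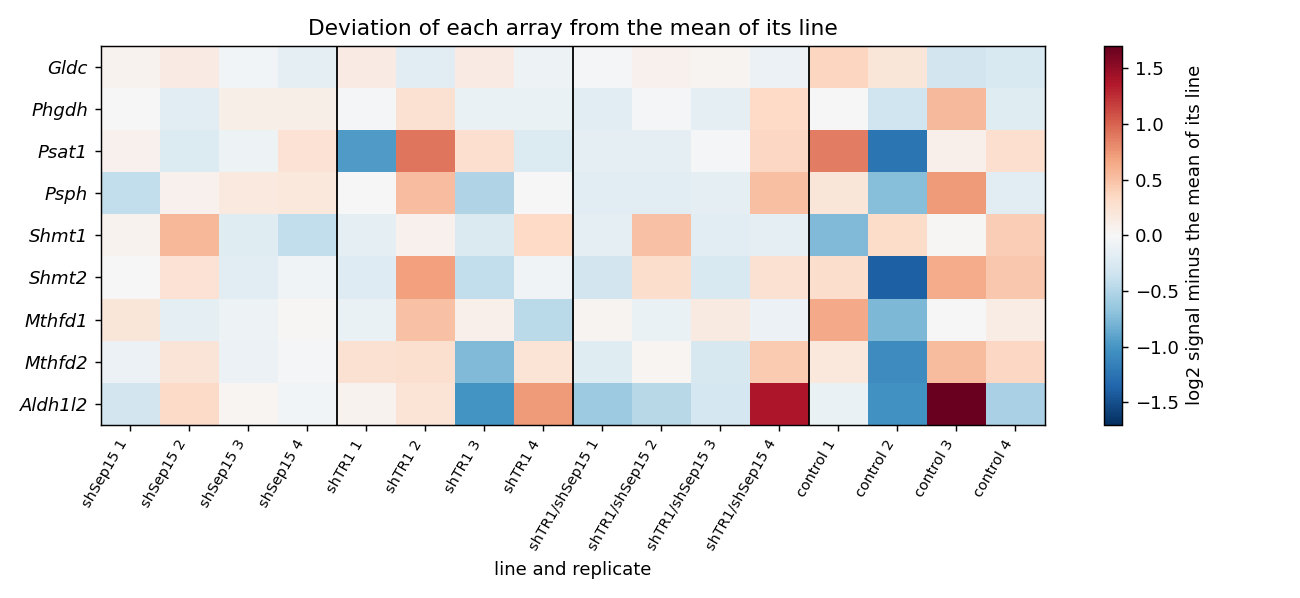
Log2 signal of each member (rows) minus the mean of its line, in each of the 16 arrays (columns, 4 for each line). Red is above and blue below the line mean; control replicate 2 is blue for 7 members, and control replicate 3 and shTR1/shSep15 replicate 4 are darkest red for Aldh1l2.

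Of the wider pathway around the members, 58 listed genes were measured: partners of glycine cleavage, transport and use of serine and glycine, other folate enzymes and transporters, purine synthesis, the methionine cycle with transsulfuration, and Atf4 with its target genes. In shSep15 against control cells 0 of the 58 rose and 2 fell by representative probe set, where 157 of all 18193 genes fell (0.591% of all probe sets). Ggh, the hydrolase that removes glutamates from folates, measured 3.46, 3.56, 3.56 and 3.29 in shSep15 cells, against 5.69, 4.31, 5.85 and 5.23 in control cells. It fell by 1.80 (SE 0.39, adjusted p = 0.0267). Vldlr, a lipoprotein receptor induced by Atf4, measured 8.70, 8.62, 8.63 and 8.34 in shSep15 cells, against 9.92, 8.83, 10.77 and 10.15 in control cells. It fell by 1.35 (SE 0.29, adjusted p = 0.029). The other Vldlr probe sets were also lower, by 0.50 to 1.33, but none of them passed (limma, adjusted p from 0.0542 to 0.631).

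Both genes rose in shTR1/shSep15 cells against shSep15 cells, as the only 2 of the 58 to pass there by representative probe set. In that comparison 291 of all 18193 genes rose (1.08% of all probe sets). Ggh measured 5.55, 5.15, 5.68 and 5.73 in shTR1/shSep15 cells, a rise of 2.06 (SE 0.39, adjusted p = 0.0104). Vldlr measured 10.21, 10.12, 10.38 and 10.60, a rise of 1.76 (SE 0.29, adjusted p = 0.0051). These comparisons share the shSep15 arrays. In the arrays labelled shTR1, Ggh measured 5.06, 3.43, 5.44 and 3.99, with replicates 2 and 4, the arrays without low Txnrd1, nearest the shSep15 level. By representative probe set, none of the 58 passed in the comparisons of shTR1 or shTR1/shSep15 cells with control cells or of shTR1/shSep15 with shTR1 cells. There limma gave 7, 11 and 3 of them an unadjusted p under 0.05, beside 11.8%, 8.14% and 10.4% of all probe sets.

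By representative probe set, non-overlapping arrays were seen in 7 of the 58 in shSep15 against control cells, beside 1378 of all 18193 genes (6.42% of all probe sets). The counts were 2 in shTR1 against control, beside 856 genes (4.22%), and 4 in shTR1/shSep15 against control, beside 1030 (4.93%). They were 12 in shTR1/shSep15 against shSep15, beside 3232 (14.6%), and 4 in shTR1/shSep15 against shTR1 cells, beside 1712 (8.08%). Of those that did not pass, the ones with the smallest p are given with their differences. In shSep15 against control cells these were Srr, the serine racemase (0.50, SE 0.12, adjusted p = 0.0517), Mtr, the methionine synthase (0.68, SE 0.17, adjusted p = 0.0659) and Sars, the seryl-tRNA synthetase (0.89, SE 0.23, adjusted p = 0.0683). The other Sars probe set, which was not the representative, was higher by 1.09 there and passed (limma, adjusted p = 0.0229). Mtrr, the methionine synthase reductase, was 0.71 above control in shTR1 cells (SE 0.16, adjusted p = 0.103), and Sfxn1, a mitochondrial serine carrier, 0.59 (SE 0.21, adjusted p = 0.29). Without shTR1 arrays 2 and 4 these were 0.83 and 0.50. In shTR1/shSep15 against control cells Gart, a trifunctional enzyme of purine synthesis that uses formyltetrahydrofolate, differed by 0.73 (SE 0.20, adjusted p = 0.345), Mtr by 0.53 (SE 0.17, adjusted p = 0.451) and Fpgs, the folylpolyglutamate synthase, by 0.36 (SE 0.15, adjusted p = 0.557). The other Mtr probe set differed there by -0.20 (limma, adjusted p = 0.854). Against shSep15 cells, Fpgs was 0.54 higher (SE 0.15, adjusted p = 0.0742), Slc46a1, the proton-coupled folate transporter, 0.47 (SE 0.14, adjusted p = 0.0871) and Gart 0.60 (SE 0.20, adjusted p = 0.156). Ahcy, which hydrolyzes S-adenosylhomocysteine, was 0.59 higher in shTR1/shSep15 than in shTR1 cells (SE 0.29, adjusted p = 0.517), Vldlr 0.58 (SE 0.29, adjusted p = 0.523) and Gart 0.39 (SE 0.20, adjusted p = 0.526). Without shTR1 arrays 2 and 4 these were 0.54, 0.55 and 0.37.

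The 6 listed genes of purine synthesis all had a higher mean in each knockdown line than in control cells, with 0 of 6 past the adjusted threshold. Their median difference was 0.64 in shSep15 cells, 0.51 in shTR1 cells (0.35 without shTR1 arrays 2 and 4) and 0.64 in shTR1/shSep15 cells. The mean signal of the 6 genes was 7.51 in control replicate 2, against 8.18 to 8.93 in the other control arrays. The 21 listed Atf4 genes were divided, with 8 higher and 13 lower in shSep15 cells, 11 and 10 in shTR1 cells, and 11 and 10 in shTR1/shSep15 cells, against control. Their medians were -0.06, 0.09 and 0.00, and that in shTR1 cells was -0.17 without shTR1 arrays 2 and 4. Of the 15 measured folate genes outside the 9 enzymes, 12 were higher in shTR1/shSep15 cells than in control cells (median 0.16), beside 9616 of all 18193 genes. In shSep15 cells 4 were higher (median -0.07), beside 8421 of all 18193 genes. The mean signal of these folate genes was 5.24 in control replicate 2, against 5.71 to 5.87 in the other control arrays. In shTR1/shSep15 cells it was 5.78 to 5.91. Gcsh and Dld, the 2 measured partners of Gldc in glycine cleavage, had median differences of 0.01 in shSep15 cells, 0.09 in shTR1 cells (-0.04 without shTR1 arrays 2 and 4) and 0.32 in shTR1/shSep15 cells against control, with 0 of 2 past the threshold in any comparison.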

How the data were processed

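The arrays were Affymetrix mouse gene chips hybridized with mRNA of the 4 CT26 lines, 4 arrays for each line. The authors corrected the background and normalized the arrays with RMA (version not given in the sources used here) and deposited log2 signals for 45101 probe sets, without missing values. Of these, 64 are manufacturer's controls and were dropped. There is no count depth, and the number of arrays limits the precision.

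Symbols came from the platform annotation and were updated through gene numbers (RefSeq, GRCm38.p6). Of the 45037 probe sets, 34945 carried 1 symbol, 932 several and 9160 none. For each gene the brightest probe set (by mean over the 16 arrays) without a second symbol was used. Each probe set was fitted with limma 3.58.1 (R 4.3.3), with 1 mean for each line over all 16 arrays (12 residual and 2.58 prior degrees of freedom), and p-values were adjusted by Benjamini-Hochberg over all probe sets (threshold 0.05). The fit was tested on simulated data. Figures were drawn with matplotlib 3.10.9 and the exact permutation test was run with SciPy 1.17.1.

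Each knockdown line was compared with control, and shTR1/shSep15 with each single knockdown. Non-additivity is the difference with both hairpins minus the sum of the single differences. The members and the gene lists were chosen with earlier results of these data known. All 9 members are named. From the wider lists, the named genes are those past the threshold and, where fewer than 3 passed, the 3 with the smallest p among genes with non-overlapping arrays. The 5 genes most like Gldc and the 10 nearest measured genes around Phgdh are also named. Some listed genes are not reported here. Alternatives changed the arrays in the fit, the moderation, the filter, the normalization, the test, the probe set, the call rule and the replicate block. Array weights and leaving out the 2 shTR1 arrays without low Txnrd1 were added after seeing the data.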

Additional observations from a re-analysis of the deposited data

Results flagged for a closer look

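In 36 groups of 4 arrays (9 members in 4 lines), 5 held an array far from its others by Dixon's criterion, which chance alone meets in about 1 in 20 groups. Psph had 9.89 and Aldh1l2 9.78 in shTR1/shSep15 replicate 4, both above the other 3 arrays of the line. Shmt1 had 8.22 in shTR1/shSep15 replicate 2, also above the others. Mthfd2 had 8.73 in shTR1 replicate 3, below the other 3 arrays labelled shTR1. Shmt2 had 8.10 in control replicate 2, below the other control arrays.

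Gldc was lower in shTR1 cells than in control cells, and higher in shTR1/shSep15 cells than in shSep15 cells, in every array. Likewise, it was lower in shSep15 cells than in control cells, and higher in shTR1/shSep15 cells than in shTR1 cells, in every array. Both views have the same size, a non-additivity of 2.32 on the log2 scale. It contains the contrast that chose the gene, so it is a description and no p-value is given.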

How the results depend on the processing

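Among the 9 members the fit counted only Gldc past the threshold, 1 member in each of these comparisons. They were shSep15 against control, shTR1 against control, shTR1/shSep15 against shSep15 and non-additivity, with 0 members in the others. Of these counts, only that of shTR1/shSep15 against shSep15 is a test of Gldc. The Gldc differences kept their direction under all alternatives run. For Gldc, counts that use control or shTR1 arrays contain arrays that chose the gene and support nothing. When a fit used no arrays beyond those 2 lines, the count was 0 in shTR1 against control and 2 in shTR1/shSep15 against shSep15 (Gldc and Mthfd1). With the methods' ANOVA at an unadjusted p under 0.05 it was 2 in shSep15 against control (Gldc and Phgdh), 2 in shTR1/shSep15 against control (Gldc and Mthfd1), 2 in shTR1/shSep15 against shSep15 (Gldc and Phgdh) and 1 in shTR1/shSep15 against shTR1 (Gldc). After adjustment the ANOVA gave the limma counts. With the most variable probe set it was 2 in shTR1/shSep15 against shSep15 (Gldc and Shmt1). With array weights, added after seeing the data, it was 3 in shSep15 against control (Gldc, Phgdh and Shmt1), 3 in shTR1/shSep15 against shSep15 (Gldc, Mthfd1 and Phgdh) and 1 in shTR1/shSep15 against shTR1. Without shTR1 arrays 2 and 4 it was 0 in shTR1 against control. Leaving out each array in turn gave 1 to 2 in shSep15 against control, with 2 (Gldc and Phgdh) without control replicate 3. The causes of these shifts were not tested.

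The replicate numbers of the labels do not pair the arrays, since deviations from the line means correlated by -0.528 to 0.466 between same-numbered arrays (24 pairs, median -0.054) and by -0.543 to 0.528 between others (72 pairs). With the number as a replicate block the counts were the same (1, 1, 0, 1, 0 and 1).

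Differences of the other 8 members that changed sign, none of them past the threshold, were as follows. Median centring gave Psat1 0.045 in shTR1 against control. Further quantile normalization gave Mthfd2 -0.052 in shTR1/shSep15 against control and Aldh1l2 0.021 in shTR1/shSep15 against shTR1. The mean of a gene's probe sets gave Phgdh -0.008 and Psat1 0.04 in shTR1 against control, and Shmt1 0.17 in shTR1/shSep15 against control. The most variable probe set gave Phgdh -0.14 and Shmt1 0.29 in shTR1 against control, Shmt1 0.63 in shTR1/shSep15 against control and Phgdh 0.031 for non-additivity. Array weights gave Psat1 -0.037 and Shmt2 -0.25 in shSep15 against control, Shmt2 -0.10 in shTR1 against control, Psph -0.013 and Mthfd2 -0.30 in shTR1/shSep15 against control, and Aldh1l2 0.00 in shTR1/shSep15 against shTR1. Without shTR1 arrays 2 and 4, shTR1 against control gave Psph -0.075, Shmt2 -0.13 and Aldh1l2 -0.22, and shTR1/shSep15 against shTR1 gave Psph 0.15 and Aldh1l2 0.43.

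Leaving out each array in turn, the differences that crossed 0 in shSep15 against control were those of Psat1 (-0.29 to 0.41), Shmt2 (-0.32 to 0.36), Mthfd1 (-0.10 to 0.37) and Aldh1l2 (-0.61 to 0.29). In shTR1 against control they were Phgdh (-0.021 to 0.27), Psat1 (-0.43 to 0.31), Psph (-0.062 to 0.42), Shmt2 (-0.27 to 0.40) and Aldh1l2 (-0.084 to 0.82). In shTR1/shSep15 against control they were Psph (-0.17 to 0.31), Mthfd2 (-0.35 to 0.19) and Aldh1l2 (-0.25 to 0.77). In shTR1/shSep15 against shTR1 they were Psph (-0.28 to 0.064) and Aldh1l2 (-0.51 to 0.19), and for non-additivity Mthfd1 (-0.036 to 0.43) and Aldh1l2 (-0.34 to 0.56). Of the 31 sign changes, 10 came with the removal of control replicate 2.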
